A study of Mus musculus with 24 samples.

Results

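The 45 genes described here encode the glucose and lactate carriers, the enzymes of glycolysis from hexokinase to lactate dehydrogenase, the makers and breakers of glycogen, and 3 enzymes that link glycolysis to glycerol phosphate and to glucose synthesis. They were chosen by name from the 48544 genes of the deposited tables, where 44 matched by symbol and Gyg1 was found under its other symbol, Gyg. The RNA came from C2C12, an established wild-type mouse myoblast line that is 1 clone and fuses into multinucleated myotubes in low serum. Polyadenylated RNA was measured in 6 groups of 4 libraries. Day 0 myoblasts were collected near confluence in 10% fetal bovine serum, and the other 5 groups were differentiated in 2% serum. Day 7 myotubes received no drug. The remaining groups were myotubes carried on from day 7 with 100 µM dexamethasone, a synthetic glucocorticoid used to make muscle cells waste, or with the vehicle, 1% ethanol, for 24 h (day 8) or 72 h (day 10). All media were high in glucose, and ethanol is given in the labels for vehicle only. Whether replicates came from separate cultures is not given, so p-values measure the spread between these libraries, which may be technical.

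Glycolysis splits glucose into pyruvate in the cytosol. Its speed is set mainly at glucose entry, at hexokinase and at phosphofructokinase, and in working muscle much of its fuel comes from stored glycogen. Most steps have several isoforms made by separate genes, and adult muscle is known for its own set: the insulin-responsive transporter GLUT4 (Slc2a4), hexokinase II, the muscle phosphofructokinase, beta-enolase, muscle phosphoglycerate mutase and muscle glycogen phosphorylase. Glucocorticoids are known to raise blood glucose and to lower glucose uptake by muscle, while storage of glycogen in muscle and liver can rise.

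Levels are TPM as the authors computed them, which are scaled for transcript length and can be compared between genes. Library values are listed in the order of replicates 1 to 4. Differences were tested with limma on the second deposited table, which holds log2-scale values, and a gene is said to rise or fall where its Benjamini-Hochberg adjusted p over 16257 tested genes was below 0.05. The log2 values are shrunken (the slope of their differences on log2 TPM differences was 0.62 to 0.69), so log2 differences understate the fold, and folds are ratios of mean TPM. Of the 45 genes, 44 passed the filter on low values, and Pygl, the liver glycogen phosphorylase, did not, with 0 to 0.357 TPM in the 24 libraries.

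The libraries carried the marks of their labels in myotube markers and dexamethasone targets, and not in myoblast markers. The summed TPM of 7 myotube markers was 490 to 748 in myoblasts and 13649 to 22699 in the other groups. That of 3 myoblast markers was 122 to 228 in day 0 myoblasts and 126 to 149 in day 7 myotubes, overlapping groups. Fkbp5, Tsc22d3 and Klf15, known targets of the glucocorticoid receptor, rose with dexamethasone at 24 h (17.1-fold, 12.2-fold and 30.5-fold) and at 72 h (9.46-fold, 6.68-fold and 3.94-fold). Both replicate 1 libraries at 72 h stood apart. For genes nearly confined to the other arm, vehicle replicate 1 held a median of 13.6% of the level in dexamethasone replicate 1, against 0.48% to 3.05% in the other vehicle replicates, and dexamethasone replicate 1 held 19.5% of the level in vehicle replicate 1, against 0.378% to 7.97%. The medians rest on few genes, 12 and 15 for replicate 1 and 18 to 58 for the other replicates, and the gene set differs between replicates. Dexamethasone replicate 3 (7.97%) was itself above replicates 2 and 4 (0.514% and 0.378%). Results at 72 h are therefore given with and without both replicate 1 libraries. At 72 h the summed TPM of 5 dividing cell markers was 10.2 to 39.7 with vehicle and 81.3 to 292 with dexamethasone, and that of 5 fibroblast markers was 1961 to 2881 and 122 to 932. Most of the fibroblast sum was Col3a1 (means of 2266 and 338 TPM), while Pdgfra of the same list averaged 6.24 and 5.98 TPM at 72 h and 4.79 and 20.3 TPM at 24 h. Of 5 adipocyte markers, Adipoq, Plin1, Cidec and Lep averaged below 0.1 TPM over the libraries, and the list's sum, nearly all Fabp4, was 0.0712 to 0.374 with vehicle and 30.3 to 51.2 with dexamethasone at 24 h, and 0.157 to 8.14 and 59.4 to 84.8 at 72 h.

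In differentiation, isoforms of the same step often differed in direction. Day 7 myotubes, against day 0 myoblasts, had higher levels of 11 of the 44 tested genes and lower levels of 15, so that 59.1% were called against 60.3% of all genes tested (30.5% higher and 29.8% lower). The median log2 difference was -0.07 over the 44 genes and 0.01 over all genes. Among the muscle isoforms, Pfkm, Aldoa, Eno3, Pgam2, Gys1, Pygm and Fbp2 rose and Phka1 fell, while Slc2a4, Hk2, Ldha and Phkg1 were not called. Among isoforms better known from other tissues, Hk1, Pfkl, Pfkp, Aldoc, Pgam1, Eno1 and Pygb fell and Eno2 rose. Slc2a3, Ldhb and Ppp1r3b of that kind were not called. Serum fell with the days in culture, so their shares cannot be told apart, nor can fewer cells of a type from less RNA per cell in bulk samples. The summed TPM of the dividing cell markers was 771 to 850 in myoblasts and 62.2 to 174 in day 7 myotubes, and its part in these differences was not tested. The plot of log2 differences by role shows all 44 genes.

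**Figure D1:**
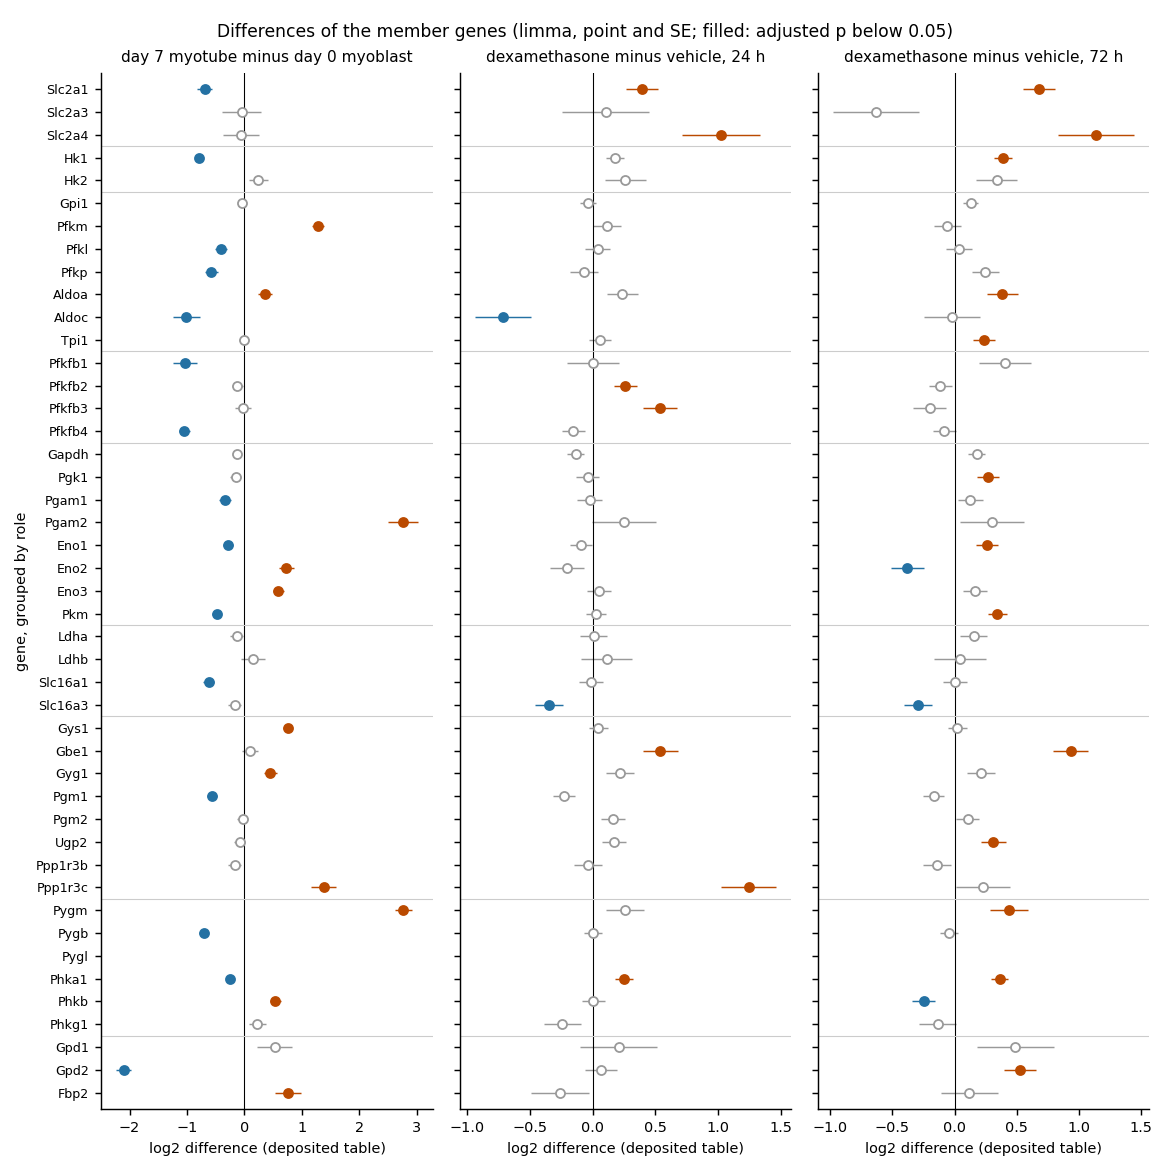
Log2 differences of the 44 tested genes with their SE (limma, horizontal axis, deposited log2 table), grouped by role from glucose transporters at the top to the glycerol phosphate shuttle at the bottom, for day 7 minus day 0 (left), dexamethasone minus vehicle at 24 h (middle) and at 72 h (right). Filled points passed the adjusted p threshold of 0.05, orange for higher and blue for lower: 11 and 15 in the left panel, 7 and 2 in the middle, 13 and 3 on the right, and Pygl was not tested.

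Of the glucose transporters, 1 fell and the others were not called. Slc2a1, which encodes the basal transporter GLUT1, measured 89.3, 57.7, 93.8 and 89.4 TPM in myoblasts and 37.8, 35.1, 43.2 and 35.7 TPM in day 7 myotubes. Every myotube library lay below every myoblast library, and Slc2a1 fell 2.18-fold in mean TPM (log2 difference -0.69, SE 0.13, adjusted p = 6.13e-05). Slc2a4 stayed near the bottom of the scale, at 0.609 ± 0.323 TPM in myoblasts and 0.508 ± 0.131 TPM in myotubes (log2 difference -0.06, SE 0.31, adjusted p = 0.878). The neuronal transporter gene Slc2a3 was also low, at 0.694 ± 0.219 and 0.671 ± 0.426 TPM (adjusted p = 0.915). Hk1, the widely expressed hexokinase, measured 86.5, 48.6, 79.8 and 69.3 TPM in myoblasts and 35.1, 24.6, 32.8 and 27.5 TPM in myotubes. These groups did not overlap, and Hk1 fell 2.37-fold (log2 difference -0.79, SE 0.07, adjusted p = 3.76e-09). Hk2, the insulin-responsive hexokinase of muscle, was at 10.4 ± 3.19 and 12.3 ± 2.04 TPM, which did not pass the test (adjusted p = 0.206).

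In upper glycolysis the muscle subunit of phosphofructokinase rose and the other subunits fell. Pfkm measured 30.8, 26.6, 27.2 and 26.6 TPM in myoblasts and 116, 89.0, 123 and 103 TPM in myotubes, with a wide gap between the groups. It rose 3.87-fold (log2 difference 1.28, SE 0.11, adjusted p = 1.28e-09). Its liver and platelet counterparts fell, Pfkl from 67.5 ± 10.9 to 42.5 ± 7.93 TPM (adjusted p = 0.00163) and Pfkp from 43.1 ± 12.6 to 22.2 ± 4.06 TPM (adjusted p = 0.000102). Aldoa, the muscle aldolase and the most abundant gene of this role, measured 1136, 799, 1095 and 1093 TPM in myoblasts and 1601, 1265, 1456 and 1334 TPM in myotubes. It rose 1.37-fold (log2 difference 0.36, SE 0.12, adjusted p = 0.0159), a call lost without myotube replicate 1 (adjusted p = 0.0504) or with quantile normalisation (adjusted p = 0.109). Aldoc, the brain aldolase, was lower in every myotube library, at 0.883, 0.579, 0.567 and 0.775 TPM against 1.56, 1.55, 2.15 and 2.97 TPM in myoblasts. It fell 2.93-fold (log2 difference -1.01, SE 0.23, adjusted p = 0.000574). Gpi1, glucose phosphate isomerase, and Tpi1, triose phosphate isomerase, were not called, at 266 ± 22.4 and 242 ± 24.1 TPM for Gpi1 (adjusted p = 0.641) and 597 ± 44.9 and 561 ± 60.2 TPM for Tpi1 (adjusted p = 0.966).

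The 4 Pfkfb genes encode the bifunctional enzymes that make and remove fructose bisphosphate of the regulatory kind, the strongest activator of phosphofructokinase. Pfkfb4 measured 8.98, 9.34, 9.45 and 8.19 TPM in myoblasts and 2.80, 3.18, 3.27 and 2.97 TPM in myotubes. Libraries within each group were close together, and Pfkfb4 fell 2.94-fold (log2 difference -1.05, SE 0.09, adjusted p = 2.49e-09). Pfkfb1 fell 2.97-fold, from 3.79, 4.03, 3.04 and 3.66 TPM to 1.19, 1.29, 0.962 and 1.44 TPM, again without overlap (log2 difference -1.04, SE 0.21, adjusted p = 0.000156). Pfkfb2 (6.34 ± 1.08 and 5.24 ± 0.578 TPM, adjusted p = 0.264) and Pfkfb3 (4.71 ± 1.49 and 4.19 ± 0.332 TPM, adjusted p = 0.877) did not pass the test.

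Among the payoff enzymes, Pgam2, the muscle phosphoglycerate mutase, measured 2.29, 1.89, 1.60 and 1.19 TPM in myoblasts and 94.1, 66.7, 71.6 and 80.6 TPM in myotubes. It rose 44.9-fold (log2 difference 2.76, SE 0.26, adjusted p = 5.18e-09). Its widely expressed paralog Pgam1 fell from 618 ± 26.1 to 422 ± 47.8 TPM (log2 difference -0.34, adjusted p = 0.00609) and remained the more abundant of the pair. Eno3, beta-enolase of muscle, rose from 436 ± 15.8 to 755 ± 66.0 TPM (log2 difference 0.59, adjusted p = 1.58e-05), and Eno2, the neuronal enolase, from 11.2 ± 1.85 to 22.3 ± 1.87 TPM (log2 difference 0.73, adjusted p = 6.98e-05). Eno1, alpha-enolase, fell from 996 ± 39.4 to 701 ± 48.6 TPM (log2 difference -0.29, adjusted p = 0.00557). The Eno1 value is uncertain, because its near-identical copy Eno1b was listed at 661 ± 25.1 and 318 ± 47.0 TPM and reads could be split between them. Pkm, pyruvate kinase, fell from 1654 ± 67.0 to 964 ± 89.8 TPM (log2 difference -0.49, adjusted p = 1.13e-05). Gapdh, glyceraldehyde phosphate dehydrogenase and the most abundant of these genes, measured 1788, 1615, 1825 and 1733 TPM in myoblasts and 1619.7, 1345, 1532 and 1322 TPM in myotubes. The groups overlapped through myotube replicate 1, and neither Gapdh (adjusted p = 0.139) nor Pgk1, phosphoglycerate kinase (899 ± 86.5 and 731 ± 87.2 TPM, adjusted p = 0.158), passed the test. Tested as log2(TPM + 0.1) both were lower (adjusted p = 0.0139 and 0.0158), on a scale where the median gene stood at -0.107. With quantile normalisation both were lower too (log2 differences -0.294 and -0.248, adjusted p = 0.000313 and 0.00407).

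Of the lactate genes, 1 fell and the others were not called. Ldha, the muscle-type lactate dehydrogenase subunit, measured 1021, 974, 989.6 and 1084 TPM in myoblasts and 1015, 779, 749 and 818 TPM in myotubes, with overlap through myotube replicate 1 (adjusted p = 0.273). Ldha was called lower with quantile normalisation (log2 difference -0.261, adjusted p = 0.00812). Ldhb, the heart-type subunit, was at 7.58 ± 0.562 and 8.35 ± 0.944 TPM (adjusted p = 0.565). Slc16a1, which encodes the monocarboxylate carrier MCT1, fell from 61.6 ± 12.7 to 31.0 ± 5.54 TPM (log2 difference -0.62, adjusted p = 9.39e-06). Slc16a3, the lactate exporter MCT4, was at 36.7 ± 5.76 and 29.3 ± 3.27 TPM and was not called (adjusted p = 0.201).

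Of 8 genes for glycogen synthesis, 3 rose and 1 fell, 50% called against 60.3% of all genes. Ppp1r3c, which targets protein phosphatase to glycogen and so favours synthesis, measured 0.0994, 0.140, 0.0961 and 0.222 TPM in myoblasts and 0.621, 0.953, 0.983 and 1.10 TPM in myotubes. It rose (log2 difference 1.39, SE 0.22, adjusted p = 1e-05) from a level too low for a fold. Gys1, the muscle glycogen synthase, rose 2.08-fold, from 23.3, 16.4, 21.4 and 18.6 TPM to 39.3, 35.1, 49.9 and 41.5 TPM (log2 difference 0.76, SE 0.08, adjusted p = 1.6e-08). Gyg1, glycogenin, the primer of the glycogen particle, rose from 44.3 ± 2.89 to 67.7 ± 5.35 TPM (log2 difference 0.45, adjusted p = 0.00116). The symbols of the phosphoglucomutases, which interconvert glucose phosphates, are swapped between the deposited table and GENCODE M21. The gene listed as Pgm1 (ENSMUSG00000029171) fell from 35.8 ± 2.90 to 19.3 ± 1.05 TPM (log2 difference -0.57, adjusted p = 8.52e-06), and the gene listed as Pgm2 (ENSMUSG00000025791) was at 52.4 ± 9.21 and 47.4 ± 4.66 TPM (adjusted p = 0.798). Ugp2, which makes UDP-glucose and is the most abundant gene of this role, measured 116, 84.7, 102 and 103 TPM in myoblasts and 95.6, 79.1, 81.7 and 93.8 TPM in myotubes, overlapping groups (adjusted p = 0.475). Gbe1, the branching enzyme (11.9 ± 2.02 and 12.6 ± 2.66 TPM, adjusted p = 0.540), and Ppp1r3b, a glycogen-targeting subunit best known from liver (0.732 ± 0.177 and 0.565 ± 0.0488 TPM, adjusted p = 0.201), were not called either. Ppp1r3b was called lower with quantile normalisation (log2 difference -0.373, adjusted p = 0.00794).

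Glycogen breakdown showed the sharpest exchange of isoforms. Pygm, muscle glycogen phosphorylase, measured 1.45, 0.889, 1.25 and 0.846 TPM in myoblasts and 44.9, 31.7, 45.7 and 36.7 TPM in myotubes. It rose 35.8-fold (log2 difference 2.77, SE 0.15, adjusted p = 1.01e-12). Pygb, the brain isoform, was higher than Pygm in myoblasts and fell from 28.3 ± 3.79 to 13.2 ± 2.20 TPM (log2 difference -0.71, adjusted p = 1.94e-08). The subunits of phosphorylase kinase, which switches phosphorylase on, did not move together. The regulatory beta subunit Phkb, the most abundant, measured 35.5, 36.0, 45.8 and 46.7 TPM in myoblasts and 49.1, 68.1, 85.8 and 71.4 TPM in myotubes, and it rose (log2 difference 0.54, SE 0.09, adjusted p = 2.73e-05). The muscle alpha subunit Phka1 fell from 7.31 ± 1.17 to 5.33 ± 0.855 TPM (log2 difference -0.25, adjusted p = 0.00410), with overlapping groups and a call that quantile normalisation removed (adjusted p = 0.0837). The muscle catalytic subunit Phkg1 was at 2.09 ± 0.363 and 2.49 ± 0.312 TPM (adjusted p = 0.201).

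Gpd2, the mitochondrial glycerol phosphate dehydrogenase that passes cytosolic electrons to the respiratory chain, measured 47.5, 28.3, 43.4 and 40.4 TPM in myoblasts and 6.30, 3.71, 4.70 and 5.07 TPM in myotubes. The lowest myoblast library was far above the highest myotube library, and Gpd2 fell 8.07-fold (log2 difference -2.10, SE 0.13, adjusted p = 6.45e-12). Gpd1, its cytosolic partner, measured 0.476 ± 0.0808 and 0.821 ± 0.290 TPM and was not called (log2 difference 0.53, adjusted p = 0.146), but passed with the replicate number as a block (adjusted p = 0.00775). Fbp2, the muscle fructose bisphosphatase, was listed at 0, 0, 0.0502 and 0 TPM in myoblasts and at 0.147, 0.0548, 0.121 and 0.178 TPM in myotubes. It rose on the log2 table (log2 difference 0.76, SE 0.23, adjusted p = 0.00622), at levels that stayed below 1 TPM throughout.

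The promoters of Pygm, Pgam2 and Ppp1r3c, the most strongly raised members with a single start in the RefSeq table, are printed because these genes rose together. The sequences are from RefSeq on GRCm38.p6, an older build than the GRCm39 of the submitters' processing notes. Each run holds the 250 bases before the start, 5′ to 3′ on the gene's strand, at chr19:6384158-6384407 (+) for Pygm, chr11:5803797-5804046 (-) for Pgam2 and chr19:36736605-36736854 (-) for Ppp1r3c. The first transcribed bases of the table's entry were found in a GENCODE M21 transcript of the gene for Pygm and Ppp1r3c and not for Pgam2, whose start was therefore not matched. Capitals mark matches to the motifs searched.
Pygm: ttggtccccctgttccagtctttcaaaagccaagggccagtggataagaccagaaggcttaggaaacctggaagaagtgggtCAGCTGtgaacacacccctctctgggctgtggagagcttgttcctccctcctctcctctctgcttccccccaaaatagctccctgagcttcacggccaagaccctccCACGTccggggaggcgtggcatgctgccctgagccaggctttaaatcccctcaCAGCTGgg
Pgam2: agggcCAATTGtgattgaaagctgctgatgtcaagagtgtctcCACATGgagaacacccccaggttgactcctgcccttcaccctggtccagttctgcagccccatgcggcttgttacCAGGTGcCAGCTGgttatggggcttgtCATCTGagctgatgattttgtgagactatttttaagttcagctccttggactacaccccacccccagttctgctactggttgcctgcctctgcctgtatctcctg
Ppp1r3c: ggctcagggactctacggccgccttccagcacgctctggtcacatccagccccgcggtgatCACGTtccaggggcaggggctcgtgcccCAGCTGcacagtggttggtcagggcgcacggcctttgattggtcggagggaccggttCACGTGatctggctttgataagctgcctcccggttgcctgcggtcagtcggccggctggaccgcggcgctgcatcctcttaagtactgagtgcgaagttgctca

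Motifs were searched on both strands, from 250 bases before to 50 after the start. The E-box CANNTG, bound by myogenic factors among many others, occurred 3 times in the Pygm window, 5 times in that of Pgam2 and 2 times in that of Ppp1r3c, and it is present in 72.3% of the 32851 promoters of the table. CAGCTG, a subset of CANNTG, occurred 2 times for Pygm, 1 time for Pgam2 and 1 time for Ppp1r3c, and in 16.3% of all promoters. ACGTG, the core of the hypoxia response element, which overlaps the E-box CACGTG, occurred 1 time for Pygm, 0 times for Pgam2 and 3 times for Ppp1r3c, against 19.6% of all promoters. For Ppp1r3c, 2 of the 3 matches are the opposite strands of 1 CACGTG, so they mark 2 places. The letters of the palindromic glucocorticoid response element (0.00913% of all promoters) and of the TATA box TATAAA (13.6%) were in none of the 3 windows. A match is a description of the letters and not evidence of binding. Gpd2 and Pfkm, with several starts in the table, were searched and are not printed. Slc2a4 had no entry.

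Isoform shares, the percentage of a family's summed TPM held by 1 gene, describe the exchange without a test. The share of Pygm among the glycogen phosphorylases went from 3.73 ± 0.551% in myoblasts to 74.9 ± 1.48% in day 7 myotubes. Pfkm held 20.4 ± 3.02% and 62.5 ± 2.38% of phosphofructokinase TPM. Eno3 held 30.2 ± 0.529% and 51.0 ± 0.599% of enolase TPM, or 20.7 ± 0.433% and 42.0 ± 0.737% where Eno1b was counted. In all 3 families every myotube library was above every myoblast library. Hk2 went from 12.6 ± 1.29% to 29.2 ± 2.94% of hexokinase TPM, where Hk1 fell and Hk2 was not called. Pgam2 reached 15.6 ± 0.692% of phosphoglycerate mutase TPM from 0.282 ± 0.0783%, and Slc2a4 held 0.720 ± 0.320% and 1.29 ± 0.255% of the 3 glucose transporters. Later vehicle libraries spread widely for Pgam2, at 47.6% in replicate 1 against 18.9% to 29.2% in the others at 24 h. Smaller differences were seen for Slc16a3 (37.6 ± 3.63% and 48.7 ± 6.55% of the lactate carriers), Ldhb (0.741 ± 0.0623% and 0.987 ± 0.0447% of lactate dehydrogenase) and Aldoa (99.8 ± 0.0548% and 99.95 ± 0.00878% of aldolase).

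**Figure D2:**
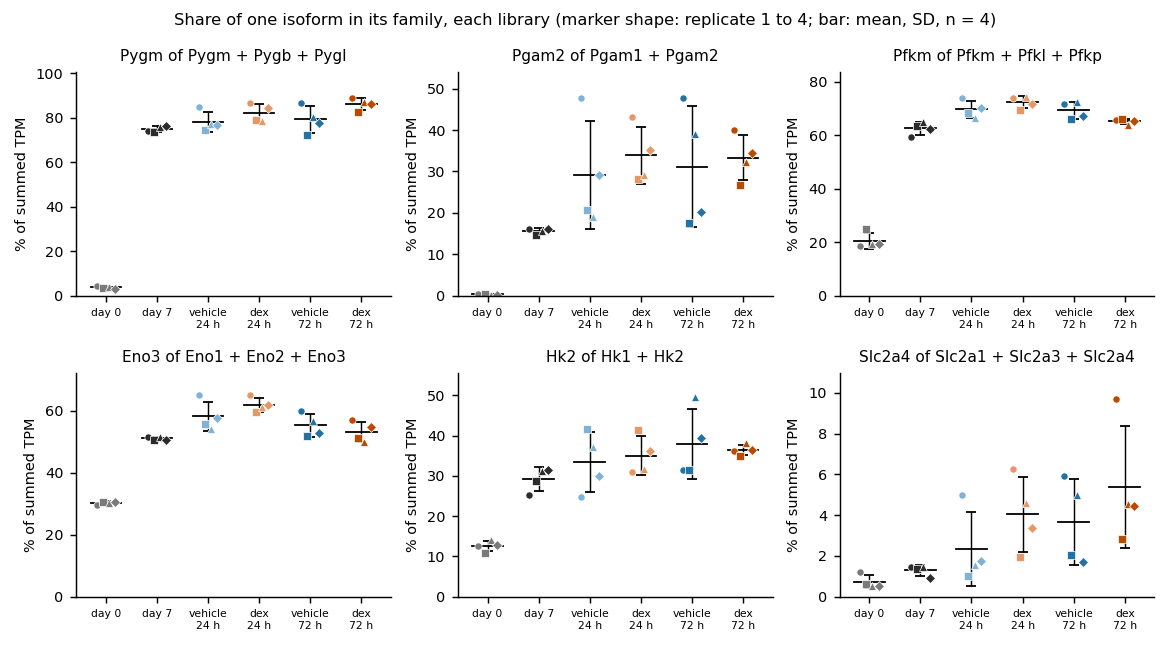
Share of 1 isoform in the summed TPM of its family, in percent (vertical axes, starting at 0), for the 6 groups; marker shapes are replicates 1 to 4, and bars are the mean with its SD (n = 4). Pygm, Pfkm and Eno3 step up between day 0 and day 7 (3.73% to 74.9%, 20.4% to 62.5% and 30.2% to 51.0%), while Pgam2 and Slc2a4 spread widely within the later groups and replicate 1 is highest in them.

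Dexamethasone for 24 h changed few of the genes, among them carriers of glucose and enzymes of glycogen. Of the 44, 7 rose and 2 fell, 20.5% against 25.4% of all genes tested (13.2% higher and 12.2% lower), and the medians were 0.05 and -0.01. The risers were Ppp1r3c, Slc2a4, Gbe1, Pfkfb3, Slc2a1, Pfkfb2 and Phka1, and the 2 that fell were Aldoc and Slc16a3. Between vehicle and dexamethasone at 24 h, the summed TPM of the fibroblast markers was 1536 to 2658 and 1011 to 1130, without overlap. Pdgfra of that list went against the sum, with the higher mean under dexamethasone, as given above. The sum of 3 myoblast markers was 138 to 152 and 206 to 238, also without overlap. The part of either sum in the response was not tested. None of the 8 enzymes of lower glycolysis was called, and none had an unadjusted p below 0.05. Of the 16257 genes tested, 3051 were higher and 3096 lower at that unadjusted threshold. The count of the 44 genes called is fragile: it was 3 without dexamethasone replicate 4 and 4 without vehicle replicate 3. The count over all genes tested fell too, from 4134 to 2706 without dexamethasone replicate 4. With the replicate number as a block, 10 rose and 2 fell, while 14.5% of all genes rose and 13.9% fell, the added genes being Hk1 (29.5 ± 1.43 and 38.1 ± 4.01 TPM, adjusted p = 0.0363), Pygm (45.3 ± 7.23 and 63.2 ± 16.0 TPM, adjusted p = 0.0324) and Ugp2 (82.0 ± 9.82 and 105 ± 14.5 TPM, adjusted p = 0.0471).

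Both glucose transporters of muscle rose. Slc2a1 measured 29.1, 52.3, 39.6 and 44.0 TPM with vehicle and 55.6, 78.5, 46.4 and 86.8 TPM with dexamethasone. Dexamethasone replicate 3 lay within the vehicle range, and Slc2a1 rose 1.62-fold in the mean (log2 difference 0.39, SE 0.13, adjusted p = 0.0260). That call was lost without dexamethasone replicate 2 or 4 (adjusted p = 0.0858 and 0.111) or vehicle replicate 1 or 3 (0.0945 and 0.0551). Slc2a4 measured 1.57, 0.534, 0.634 and 0.787 TPM with vehicle and 3.80, 1.54, 2.28 and 3.05 TPM with dexamethasone. The groups overlapped slightly, vehicle replicate 1 lying above dexamethasone replicate 2, although in every same-numbered pair the treated library was higher. Slc2a4 rose 3.02-fold (log2 difference 1.02, SE 0.31, adjusted p = 0.0180, a fit that does not use the pairs), though its highest treated level was still far below that of Slc2a1. Its call was lost without dexamethasone replicate 1 or 4 (adjusted p = 0.0619 and 0.0521) or vehicle replicate 2 or 3 (0.0530 and 0.0556), and it held with the block (adjusted p = 0.00142). Slc2a3 was at 0.543 ± 0.147 and 0.696 ± 0.374 TPM (adjusted p = 0.855), and Hk2 at 15.3 ± 5.47 and 20.8 ± 4.59 TPM (adjusted p = 0.254).

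Pfkfb3 and Pfkfb2, regulators of phosphofructokinase, rose while its subunits were not called. Pfkfb3, the isoform with the highest kinase activity, measured 2.55, 4.50, 3.39 and 3.82 TPM with vehicle and 5.07, 7.19, 5.05 and 9.93 TPM with dexamethasone. The groups did not overlap, and Pfkfb3 rose 1.91-fold (log2 difference 0.54, SE 0.13, adjusted p = 0.00559). Pfkfb2 measured 4.91, 5.47, 3.31 and 4.24 TPM with vehicle and 6.10, 5.75, 6.33 and 6.57 TPM with dexamethasone, also without overlap. It rose 1.38-fold (log2 difference 0.26, SE 0.09, adjusted p = 0.0451), just past the threshold, and the call was lost without any 1 of 6 libraries (dexamethasone replicates 1 to 4 and vehicle replicates 3 and 4, adjusted p = 0.0543 to 0.196). Pfkm was at 134 ± 17.3 and 162 ± 36.1 TPM (adjusted p = 0.463), Pfkl at 31.3 ± 4.48 and 35.2 ± 6.69 TPM (adjusted p = 0.816) and Pfkp at 26.3 ± 3.47 and 26.6 ± 5.52 TPM (adjusted p = 0.685). Pfkfb1 and Pfkfb4 were not called, at 0.720 ± 0.291 and 0.739 ± 0.172 TPM and at 2.73 ± 0.357 and 2.48 ± 0.0461 TPM.

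Aldoc fell, from 0.675, 0.355, 0.590 and 0.355 TPM with vehicle to 0.330, 0.161, 0.247 and 0.157 TPM with dexamethasone. Every treated library was below every vehicle library, although all were under 1 TPM (log2 difference -0.72, SE 0.23, adjusted p = 0.0243). The call was lost without dexamethasone replicate 2 or 4 (adjusted p = 0.0663 and 0.0870) or vehicle replicate 1 or 3 (0.0815 and 0.0819), and with a pseudocount of 1 TPM (0.132). Aldoa, which supplies nearly all aldolase TPM, was at 1833 ± 286 and 2521 ± 584 TPM (adjusted p = 0.163). Slc16a3, the lactate exporter, measured 14.7, 19.1, 26.0 and 17.6 TPM with vehicle and 14.9, 16.1, 12.6 and 13.2 TPM with dexamethasone. It fell 1.36-fold (log2 difference -0.35, SE 0.11, adjusted p = 0.0249), with vehicle replicate 1 inside the treated range. This call was lost without dexamethasone replicate 3 or 4 (adjusted p = 0.0604 and 0.0834) or vehicle replicate 3 (0.131), and on log2(TPM + 0.1) (0.0778). Slc16a1 was at 32.7 ± 6.92 and 34.6 ± 7.29 TPM (adjusted p = 0.935), Ldha at 729 ± 80.1 and 793 ± 127 TPM (adjusted p = 0.967) and Ldhb at 11.5 ± 3.11 and 14.0 ± 4.69 TPM (adjusted p = 0.726).

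In glycogen metabolism, Ppp1r3c had the largest response of the 44 genes at 24 h. It measured 1.58, 1.16, 1.26 and 1.83 TPM with vehicle and 5.86, 5.13, 3.75 and 6.54 TPM with dexamethasone. The lowest treated library was above the highest vehicle library, and Ppp1r3c rose 3.65-fold (log2 difference 1.25, SE 0.22, adjusted p = 0.000241). Gbe1 measured 7.56, 12.6, 10.5 and 12.8 TPM with vehicle and 15.4, 18.5, 22.9 and 24.0 TPM with dexamethasone, and it rose 1.86-fold without overlap (log2 difference 0.54, SE 0.14, adjusted p = 0.00694). Phka1 measured 4.76, 5.78, 4.30 and 5.15 TPM with vehicle and 7.08, 5.78, 6.90 and 8.14 TPM with dexamethasone. The groups touched at replicate 2 of each, and Phka1 rose 1.40-fold (log2 difference 0.25, SE 0.07, adjusted p = 0.0114), a call that was lost without dexamethasone replicate 4 (adjusted p = 0.0527). Gys1 stayed at 41.0 ± 0.827 and 46.3 ± 5.16 TPM (adjusted p = 0.688), Gyg1 was at 85.0 ± 9.02 and 114 ± 19.4 TPM (adjusted p = 0.154), and Pygb at 12.4 ± 1.72 and 13.2 ± 0.431 TPM (adjusted p = 0.987).

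**Figure D3:**
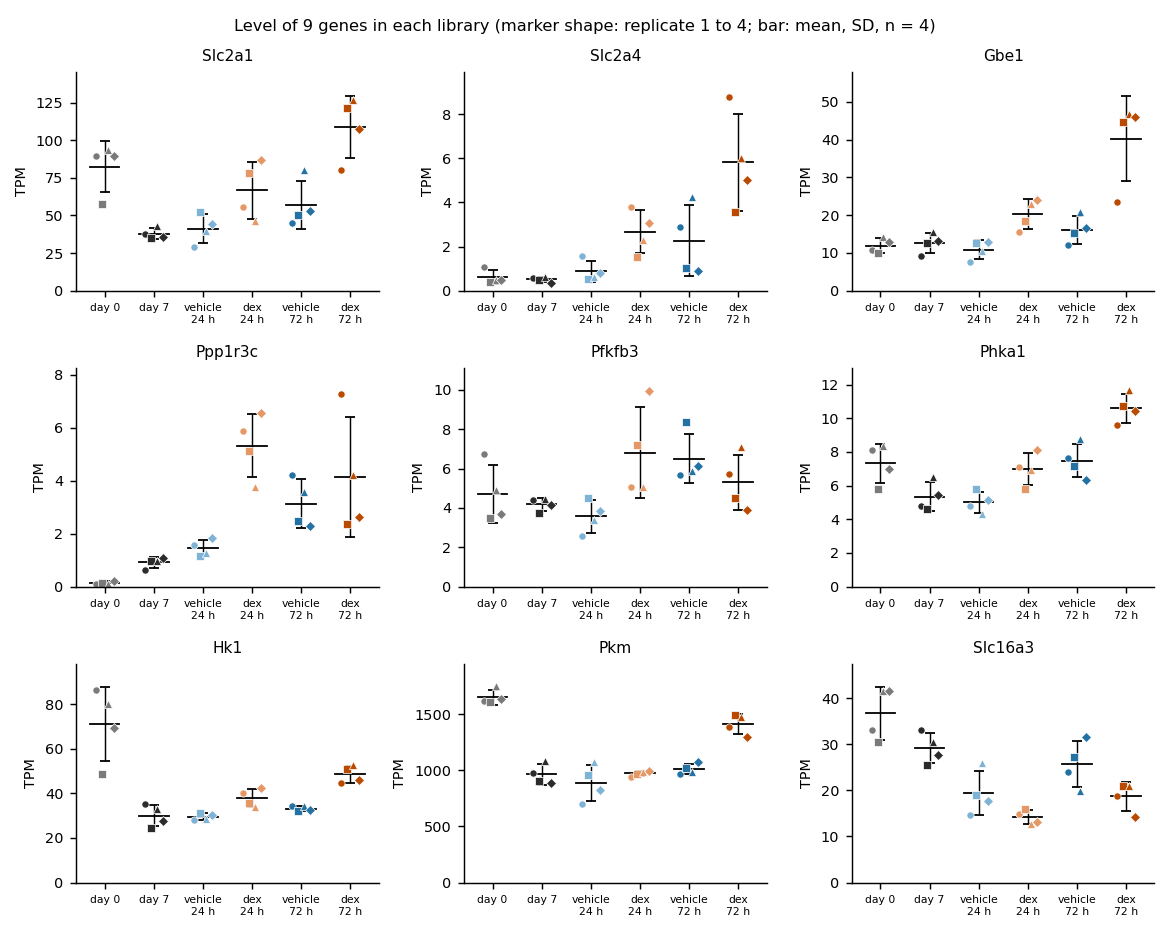
TPM of 9 genes in every library (vertical axes, each starting at 0), for the 6 groups; marker shapes are replicates 1 to 4, and bars are the mean with its SD (n = 4). Gbe1, Ppp1r3c and Pfkfb3 do not overlap between vehicle and dexamethasone at 24 h, Slc2a1, Hk1, Phka1 and Pkm do not overlap at 72 h, and for Gbe1 at 72 h dexamethasone replicate 1 (23.5 TPM) lies nearest to vehicle (at most 20.9 TPM).

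After 72 h of dexamethasone several glycolytic enzymes were higher. Of the 44 genes, 13 rose and 3 fell, 36.4% against 30.3% of all genes tested. For higher calls alone the share was 29.5%, against 15.2% of all genes, and for lower calls 6.82% against 15.2%. The median log2 difference was 0.16, against 0.01 over all genes. Without both replicate 1 libraries 11 rose and 2 fell, where 15.1% and 15.7% of all genes did: 12 of the 16 were called in the same direction, Tpi1, Eno1, Slc16a3 and Phkb were not, and Slc2a3 was added. The count was 9 when only the 8 libraries of this comparison were fitted and also without vehicle replicate 2. Over all genes tested, 4931 were called in the main fit and 3892 to 5472 with 1 library left out. The sums of the dividing cell, fibroblast (mostly Col3a1) and adipocyte (mostly Fabp4) markers given above moved with this comparison, and their part in it was not tested.

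Both Slc2a1 and Slc2a4 rose again. Slc2a1 measured 44.7, 50.1, 80.1 and 52.8 TPM with vehicle and 80.3, 121, 127 and 108 TPM with dexamethasone. The groups did not overlap, although vehicle replicate 3 nearly reached dexamethasone replicate 1, and Slc2a1 rose 1.91-fold (log2 difference 0.68, SE 0.13, adjusted p = 0.000283; 0.71 and 0.000513 without both replicate 1 libraries). Slc2a4 measured 2.88, 1.05, 4.24 and 0.911 TPM with vehicle and 8.76, 3.55, 6.02 and 5.00 TPM with dexamethasone. The groups overlapped, vehicle replicate 3 lying above dexamethasone replicate 2, although each treated library was above the vehicle library of its number. Slc2a4 rose 2.57-fold (log2 difference 1.14, SE 0.31, adjusted p = 0.00725, and 1.11 and 0.0162 without both). Slc2a3 was at 1.11, 0.626, 0.542 and 0.548 TPM with vehicle and 1.16, 0.187, 0.323 and 0.148 TPM with dexamethasone, and was not called (log2 difference -0.63, adjusted p = 0.179), but passed without both replicate 1 libraries (-0.86, adjusted p = 0.0366). Hk1 measured 34.2, 31.9, 34.4 and 32.3 TPM with vehicle and 44.5, 50.7, 52.7 and 46.1 TPM with dexamethasone, 2 tight and separate groups. It rose 1.46-fold (log2 difference 0.39, SE 0.07, adjusted p = 0.000278; 0.42 and 0.000650 without both). Hk2 was at 21.2 ± 8.82 and 27.8 ± 3.18 TPM (adjusted p = 0.125).

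Aldoa measured 3114, 1941, 3110.3 and 2353 TPM with vehicle and 3758, 3501, 3989 and 3579 TPM with dexamethasone. All treated libraries were above all vehicle libraries, and Aldoa rose 1.41-fold (log2 difference 0.38, SE 0.12, adjusted p = 0.0212; 0.44 and 0.0193 without both replicate 1 libraries). That call was lost without vehicle replicate 2 or 4 (adjusted p = 0.101 and 0.0567). Tpi1 rose from 504 ± 43.0 to 632 ± 58.7 TPM (log2 difference 0.24, adjusted p = 0.0392), and not without both replicate 1 libraries (adjusted p = 0.0546) or without any 1 of 6 libraries (dexamethasone replicates 1, 2 and 4 and vehicle replicates 2, 3 and 4, adjusted p = 0.0539 to 0.120). Pfkp was at 31.7 ± 3.62 and 40.1 ± 4.92 TPM and was not called (adjusted p = 0.0961), but passed with the replicate block (0.0172). Gpi1 (284 ± 30.8 and 318 ± 19.4 TPM, adjusted p = 0.129), Pfkm (174 ± 31.8 and 161 ± 15.5 TPM, 0.723), Pfkl (44.2 ± 3.82 and 45.4 ± 7.02 TPM, 0.836) and Aldoc (0.359 ± 0.233 and 0.321 ± 0.101 TPM, 0.961) were not called. Nor were the Pfkfb genes: Pfkfb1 (0.597 ± 0.155 and 0.995 ± 0.475 TPM, adjusted p = 0.147), Pfkfb2 (5.95 ± 0.798 and 5.25 ± 0.978 TPM, 0.393), Pfkfb3 (6.50 ± 1.25 and 5.30 ± 1.41 TPM, 0.284) and Pfkfb4 (2.68 ± 0.554 and 2.41 ± 0.376 TPM, 0.557).

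In lower glycolysis Pkm responded most clearly, at 972, 1018, 989 and 1078 TPM with vehicle and 1385, 1493, 1472 and 1299 TPM with dexamethasone. These groups were well apart, and Pkm rose 1.39-fold (log2 difference 0.34, SE 0.08, adjusted p = 0.00163; 0.33 and 0.00874 without both replicate 1 libraries). Pgk1 rose from 648 ± 53.3 to 838 ± 53.3 TPM (log2 difference 0.27, adjusted p = 0.0282), a call lost without any 1 of 5 libraries (dexamethasone replicates 1, 2 and 4 and vehicle replicates 2 and 3, adjusted p = 0.0523 to 0.0855). Eno1 rose from 547 ± 92.7 to 701 ± 71.2 TPM (log2 difference 0.26, adjusted p = 0.0254), and not without both replicate 1 libraries (adjusted p = 0.0515), dexamethasone replicate 2 (0.0879) or vehicle replicate 3 (0.105). Its copy Eno1b was at 219 ± 58.1 and 282 ± 26.3 TPM (adjusted p = 0.0806). Eno2 measured 22.0, 19.7, 25.6 and 19.4 TPM with vehicle and 21.2, 8.41, 20.6 and 11.4 TPM with dexamethasone. Dexamethasone replicates 2 and 4 were low and the other two lay in the vehicle range, so that Eno2 fell 1.41-fold in the mean (log2 difference -0.38, SE 0.13, adjusted p = 0.0363; -0.50 and 0.00676 without both). The Eno2 call was lost without dexamethasone replicate 2 (log2 difference -0.20, adjusted p = 0.190) or 4 (0.124) or vehicle replicate 1 or 3 (0.0785 and 0.101). Gapdh measured 1539, 1363, 1699 and 1701 TPM with vehicle and 1788, 1968, 1763 and 1887 TPM with dexamethasone. These groups did not overlap but missed the threshold (log2 difference 0.18, adjusted p = 0.0597). Gapdh passed it on log2(TPM + 0.1) (0.0498) and with quantile normalisation (0.00887). Eno3 (701 ± 92.0 and 814 ± 73.7 TPM, adjusted p = 0.208), Pgam1 (305 ± 60.3 and 339 ± 29.9 TPM, 0.366) and Pgam2 (142 ± 79.8 and 172 ± 48.4 TPM, 0.410) were not called.

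Slc16a3 measured 23.9, 27.4, 19.9 and 31.7 TPM with vehicle and 18.8, 20.9, 20.9 and 14.2 TPM with dexamethasone. It fell 1.37-fold (log2 difference -0.30, SE 0.11, adjusted p = 0.0488), with vehicle replicate 3 in the treated range. The call was lost with the replicate block (adjusted p = 0.0615), without both replicate 1 libraries (0.0732), with quantile normalisation (0.0563), on log2(TPM + 0.1) (0.0514) and without any 1 of 6 libraries (dexamethasone replicates 2, 3 and 4 and vehicle replicates 1, 2 and 4, 0.0572 to 0.182). Ldha (829.6 ± 131 and 951 ± 101 TPM, adjusted p = 0.302), Ldhb (13.4 ± 5.31 and 13.7 ± 5.66 TPM, 0.903) and Slc16a1 (47.9 ± 5.10 and 47.0 ± 1.38 TPM, 0.996) were not called.

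Glycogen genes gave the largest change of the 72 h comparison after Slc2a4. Gbe1, the branching enzyme, measured 12.0, 15.2, 20.9 and 16.5 TPM with vehicle and 23.5, 44.7, 46.9 and 45.9 TPM with dexamethasone. Dexamethasone replicate 1 was well below the other treated libraries and still above all vehicle libraries. Gbe1 rose 2.49-fold (log2 difference 0.93, SE 0.14, adjusted p = 3.04e-05), or 2.61-fold without both replicate 1 libraries (log2 difference 1.01, adjusted p = 4.24e-06). Ugp2, which makes the substrate of glycogen synthase, measured 107, 79.0, 107 and 88.8 TPM with vehicle and 156, 119, 113 and 128 TPM with dexamethasone, without overlap. It rose 1.35-fold (log2 difference 0.31, SE 0.10, adjusted p = 0.0180; 0.29 and 0.0331 without both), a call lost without dexamethasone replicate 1 (0.0692) or vehicle replicate 2 (0.0829). Ppp1r3c measured 4.20, 2.48, 3.59 and 2.27 TPM with vehicle and 7.29, 2.36, 4.22 and 2.62 TPM with dexamethasone, overlapping groups (log2 difference 0.23, SE 0.22, adjusted p = 0.469). Gys1 (52.5 ± 9.04 and 52.5 ± 3.81 TPM, adjusted p = 0.868), Gyg1 (110.3 ± 34.3 and 129.8 ± 4.90 TPM, 0.157), Pgm1 (15.5 ± 3.46 and 12.7 ± 1.92 TPM, 0.158), Pgm2 (63.3 ± 10.2 and 68.9 ± 4.70 TPM, 0.439) and Ppp1r3b (0.673 ± 0.108 and 0.568 ± 0.0759 TPM, 0.366) did not pass.

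Pygm measured 74.6, 37.4, 60.0 and 44.2 TPM with vehicle and 104, 67.8, 79.7 and 66.2 TPM with dexamethasone, where vehicle replicate 1 lay among the treated libraries. It rose 1.47-fold (log2 difference 0.44, SE 0.15, adjusted p = 0.0325; 0.45 and 0.0173 without both replicate 1 libraries). The Pygm call was lost without dexamethasone replicate 1 or 3 (adjusted p = 0.116 and 0.0534) or vehicle replicate 2 or 4 (0.144 and 0.0946), and on log2(TPM + 0.1) (0.0548), while with the block it held (0.000627). Phka1 measured 7.64, 7.18, 8.76 and 6.35 TPM with vehicle and 9.57, 10.7, 11.7 and 10.4 TPM with dexamethasone. The groups were separate, and Phka1 rose 1.41-fold (log2 difference 0.36, SE 0.07, adjusted p = 0.000407; 0.40 and 0.000798 without both). Phkb measured 84.1, 108, 120.3 and 96.5 TPM with vehicle and 67.2, 89.0, 84.8 and 74.0 TPM with dexamethasone, overlapping at vehicle replicate 1. It fell 1.30-fold (log2 difference -0.25, SE 0.09, adjusted p = 0.0457), a call lost without both replicate 1 libraries (adjusted p = 0.0638), on log2(TPM + 0.1) (0.0933) and without any 1 of 6 libraries (dexamethasone replicates 1, 3 and 4 and vehicle replicates 2, 3 and 4, 0.0651 to 0.147). Pygb (13.3 ± 1.50 and 12.5 ± 1.72 TPM, adjusted p = 0.693) and Phkg1 (2.53 ± 0.411 and 2.16 ± 0.361 TPM, 0.543) were not called.

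Gpd2 measured 6.26, 5.28, 5.17 and 4.73 TPM with vehicle and 8.23, 12.4, 7.03 and 9.18 TPM with dexamethasone. Every treated library was higher than every vehicle library, and Gpd2 rose 1.72-fold (log2 difference 0.53, SE 0.13, adjusted p = 0.00307; 0.61 and 0.00333 without both replicate 1 libraries). It remained far below the 28.3 to 47.5 TPM of myoblasts. Gpd1 was at 0.845 ± 0.430 and 1.42 ± 0.854 TPM and was not called (adjusted p = 0.247), but passed with the replicate block (0.0238). Fbp2 was at 0.201 ± 0.0713 and 0.233 ± 0.0766 TPM (adjusted p = 0.745).

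All 45 genes together made up 0.893 ± 0.0766% of TPM in day 7 myotubes and 1.01 ± 0.0628% in myoblasts. With dexamethasone the sum was 1.13, 0.902, 0.875 and 1.02% at 24 h, against 0.878, 0.835, 0.905 and 0.850% with vehicle, overlapping groups. At 72 h it was 1.32, 1.31, 1.29 and 1.24% with dexamethasone and 1.11, 0.897, 1.05 and 1.02% with vehicle. All 4 treated libraries at 72 h were above the vehicle libraries, also when both replicate 1 libraries were set aside. The 7 genes of upper glycolysis, most of it Aldoa, accounted for 0.490 ± 0.0236% with dexamethasone and 0.367 ± 0.0644% with vehicle at 72 h, and the 8 of lower glycolysis for 0.614 ± 0.0279% and 0.496 ± 0.0311%.

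**Figure D4:**
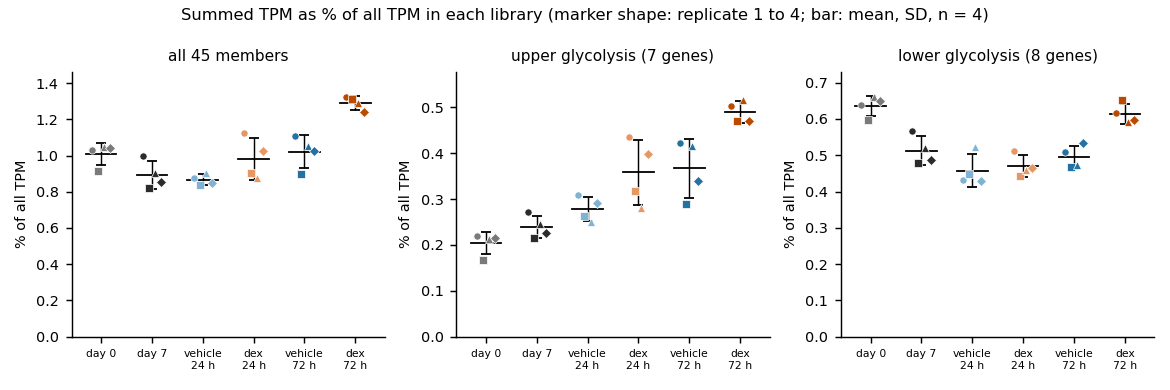
Summed TPM of all 45 genes (left), of the 7 genes of upper glycolysis (middle) and of the 8 genes of lower glycolysis (right), as a percentage of all TPM (vertical axes, starting at 0), in every library; marker shapes are replicates 1 to 4, and bars are the mean with its SD (n = 4). In each panel the dexamethasone libraries at 72 h lie above the vehicle libraries of the same time.

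The response at 72 h differed from that at 24 h for 3 of the 44 genes, 6.82% against 11.3% of all genes tested (5.56% higher and 5.77% lower). For Pfkfb3 the difference of responses was -0.74 on the log2 scale (SE 0.19, adjusted p = 0.0137, and -0.81 and 0.0105 without both replicate 1 libraries). Its levels were 3.57 ± 0.818 TPM with vehicle and 6.81 ± 2.31 TPM with dexamethasone at 24 h. At 72 h they were 6.50 ± 1.25 and 5.30 ± 1.41 TPM, where the treated mean was the lower. Ppp1r3c was at 1.46 ± 0.306 and 5.32 ± 1.19 TPM at 24 h and at 3.13 ± 0.916 and 4.12 ± 2.27 TPM at 72 h. Its response was smaller at 72 h, by -1.02 (SE 0.31, adjusted p = 0.0346, and -1.14 and 0.00353 without both). That difference was lost without any 1 of 9 libraries, namely vehicle replicates 2 and 3 and dexamethasone replicates 1, 2 and 4 at 24 h and vehicle replicates 1 and 3 and dexamethasone replicates 2 and 4 at 72 h (adjusted p = 0.0554 to 0.0918). Gapdh went the other way, by 0.31 (SE 0.10, adjusted p = 0.0418), not called in either response alone. It was lost without both replicate 1 libraries (adjusted p = 0.0589) and without any 1 of 8 libraries, vehicle replicate 3 and dexamethasone replicates 2, 3 and 4 at 24 h and vehicle replicates 1 and 2 and dexamethasone replicates 2 and 4 at 72 h (0.0524 to 0.0974). With the replicate block 5 genes differed, Gbe1 (0.39, adjusted p = 0.0141) and Gpd2 (0.46, adjusted p = 0.0458) being added. In that fit 6.56% of all genes tested were higher and 7.18% lower.

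In the comparisons without drug few genes were called. Between day 7 and vehicle at 24 h limma called 0 of the 44 genes, against 0.209% of all genes tested. At an unadjusted p below 0.05, 4 were higher and 6 lower, as were 1173 and 1382 of the 16257 genes tested. On log2(TPM + 0.1) 0 were called, where 0.0131% of all genes were higher and 0.0131% lower. Without vehicle replicate 3 the count on the log2 table was 3, and it was 328 over all genes tested. Between vehicle at 24 h and at 72 h, 2 of 44 rose, against 4.36% of all genes tested (2.67% higher and 1.69% lower): Pfkfb3 (log2 difference 0.50, SE 0.13, adjusted p = 0.0424) and Phka1 (5.00 ± 0.627 and 7.48 ± 1.00 TPM, log2 difference 0.30, SE 0.07, adjusted p = 0.0314). Both calls were lost without both replicate 1 libraries at 72 h (adjusted p = 0.0547 and 0.0546). Pfkfb3 also lost its call without any 1 of 6 libraries (vehicle replicates 1, 3 and 4 at 24 h and 1, 2 and 3 at 72 h, 0.0556 to 0.168) and Phka1 without any 1 of 5 (replicates 1 and 3 at 24 h and 1, 2 and 3 at 72 h, 0.0536 to 0.151).

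Differentiation and the 72 h response share no library, and their called genes can be set side by side. Of the 15 genes that fell in differentiation, 6 rose with dexamethasone at 72 h (Slc2a1, Hk1, Pkm, Eno1, Phka1 and Gpd2), which is 40.0% of the 15 and 46.2% of the 13 that rose. Over all genes tested, 1519 of the 4841 that fell in differentiation rose at 72 h, which is 31.4% of those that fell and 61.6% of those that rose. None of the 15 fell at 72 h, where 7.06% of the 4841 did. Of the 11 that rose in differentiation, Pygm and Aldoa rose again at 72 h (18.2%), and Eno2 and Phkb fell (18.2%). Over all genes tested, 7.43% of the 4956 that rose in differentiation rose at 72 h and 25.1% fell. Gbe1, Slc2a4, Ugp2, Pgk1 and Tpi1 rose at 72 h with no call in differentiation.

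Other genes of the pathway were read from 6 lists of 58 genes, of which 47 were tested. In differentiation 16 rose and 16 fell, at 24 h of dexamethasone 13 rose and 7 fell, and at 72 h 16 rose and 5 fell. As shares of the 47 these were 34.0% and 34.0%, 27.7% and 14.9%, and 34.0% and 10.6%, against 30.5% and 29.8%, 13.2% and 12.2%, and 15.2% and 15.2% of all genes tested. Without both replicate 1 libraries at 72 h, 12 rose and 5 fell, where 15.1% and 15.7% of all genes did. Of 13 further glycogen genes tested, 7 rose and 0 fell at 24 h (53.8% higher, against 13.2% of all genes) and 6 rose and 0 fell at 72 h (46.2%, against 15.2%). The counts at 72 h were 5 and 0 without both replicate 1 libraries. Phka2, the liver alpha subunit of phosphorylase kinase, named after its values were seen, rose 2.46-fold at 24 h (7.59 ± 0.903 to 18.7 ± 2.54 TPM, adjusted p = 1.35e-07). Ppp1r3a, the muscle counterpart of Ppp1r3c, was listed at 0 TPM in all myoblast libraries and at 0.224 to 0.397 TPM in day 7 myotubes (log2 difference 1.82, adjusted p = 2.27e-05), and it rose again at 72 h from 2.24 ± 1.44 to 5.47 ± 0.561 TPM (adjusted p = 0.00577). Of 8 pentose phosphate genes, 5 fell and 0 rose in differentiation (62.5% lower, against 29.8% of all genes), 1 rose and 2 fell at 24 h of dexamethasone, and 3 rose and 0 fell at 72 h. G6pdx, the entry enzyme, was among those that fell in differentiation, 4.84-fold lower at 16.3 ± 2.93 TPM (adjusted p = 5.28e-10).

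The other genes with the largest differences went in different directions. Rrad, a small GTPase reported to restrain glucose uptake, rose 23.2-fold in differentiation, from 3.40 ± 0.641 to 79.0 ± 27.9 TPM (adjusted p = 6.89e-09), and fell 6.55-fold with dexamethasone at 72 h, from 101 ± 47.1 to 15.5 ± 4.74 TPM (adjusted p = 2.43e-05). Slc2a6, a glucose transporter family member of lysosomes, rose 16.2-fold in differentiation, from 1.26 ± 0.325 to 20.4 ± 3.14 TPM (adjusted p = 9.03e-12), and fell 2.23-fold at 24 h, from 32.8 ± 6.52 to 14.7 ± 4.39 TPM (adjusted p = 0.000118). Emb, embigin, a partner protein of the lactate carriers, rose 5.08-fold at 24 h, from 20.2 ± 4.63 to 103 ± 23.0 TPM (adjusted p = 3.63e-06). At 72 h it was at 33.0 ± 4.96 and 25.3 ± 18.1 TPM, a change of response of -1.96 (adjusted p = 0.000143). Dexamethasone replicate 1 held 51.5 TPM at 72 h. Without both replicate 1 libraries the 72 h means were 30.7 ± 2.37 TPM with vehicle and 16.6 ± 5.74 TPM with dexamethasone.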

How the data were processed

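Polyadenylated RNA of 24 libraries was described by 2 deposited tables. The authors' TPM values are scaled for transcript length and library total, with Salmon, kallisto 0.51.1 and GRCm39 named in the submitters' processing notes, which also name DESeq. The second table deposited by the authors holds log2 values whose normalisation is not given in the sources used here. Depth is unknown, so no counting intervals are given.

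Genes were kept where 2 to the power of the log2 value reached 10 in 4 libraries, and all 6 groups were fitted with limma 3.58.1 (trend) in R 4.3.3, with Benjamini-Hochberg adjustment over 16257 genes. Folds are ratios of mean TPM where both means were at least 0.5. Alternatives were log2(TPM + 0.1) and log2(TPM + 1), no filter, quantile normalisation, a replicate block, only the groups compared, each library left out, and both replicate 1 libraries at 72 h left out. The last was also run on log2(TPM + 0.1), and Eno1b counted with the enolases, both chosen after seeing the data. Same-numbered libraries deviated together in differentiation (correlations 0.145 to 0.212) and at 24 h of dexamethasone (0.201 to 0.391), so the numbers pair them there. At 72 h (0.117 to 0.338) pairing was less clear. Dexamethasone replicate 2 correlated more with a vehicle library of another number (0.162 against 0.117), and replicate 4 nearly as much (0.140 against 0.163). The main fit holds no replicate block, so its p-values do not use any pairing. The highest correlation between libraries was 0.998 and 0 columns were identical.

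On simulated data for dexamethasone at 24 h (16257 genes), limma found 82% of changes of log2 1 and 55% of 0.5. These sizes are on the shrunken scale of the log2 table. Far fewer genes were changed in the simulation than the 4134 called in the real comparison, so the shares found do not carry over to it. Library values are given for the 10 largest called differences of each main comparison and the most abundant gene of each role. The genes, the lists and this rule were chosen with earlier results of these data known. 8 further table entries that share a symbol with these genes were set aside. Some genes of the lists are not reported here.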

Additional observations from a re-analysis of the deposited data

Results flagged for a closer look

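Of 336 groups of 4 libraries examined, 23 held 1 library far from the other 3, where chance gives about 1 in 20, and 10 of these libraries were replicate 1. Myoblast replicate 2 was low for Slc2a1 (57.7 TPM), Aldoa (799 TPM), Slc16a1 (42.7 TPM), Pgm1 (31.4 TPM) and the sum of all 45 genes (0.915% of TPM), and high for the Pfkm share (24.9%). Among the other myoblast libraries, replicate 1 was high for Slc2a4 (1.09 TPM) and Pfkm (30.8 TPM), replicate 3 for Fbp2 (0.0502 TPM) and replicate 4 for Pygl (0.357 TPM). In day 7 myotubes, replicate 1 was high for Tpi1 (650.0 TPM), Gpd1 (1.26 TPM) and the Slc16a3 share (58.4%), and replicate 3 for Pygl (0.234 TPM) and the Eno3 share with Eno1b counted (43.1%).

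At 24 h, vehicle replicate 1 was high for Gpd1 (1.76 TPM) and dexamethasone replicate 3 for Pfkfb4 (2.55 TPM). At 72 h, vehicle replicate 1 was high for Slc2a3 (1.11 TPM) and vehicle replicate 3 for Aldoc (0.707 TPM). Dexamethasone replicate 1 was high for Ldhb (22.1 TPM) and Gpd1 (2.70 TPM) and low for Gbe1 (23.5 TPM), and replicate 3 was low for Fbp2 (0.118 TPM). The dexamethasone response differed between 72 h and 24 h, by limma's test of that difference, for Pfkfb3 (-0.735), Ppp1r3c (-1.02) and Gapdh (0.314).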

How the results depend on the processing

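No log2 difference of the 45 genes changed direction where it was called. The count of these genes called at 72 h of dexamethasone was 9 with only its groups fitted. For the change of response it was 1 with no filter, 5 with the replicate block and 1 with only its groups. For vehicle at 72 h against 24 h it was 1 on log2(TPM + 0.1), 1 on log2(TPM + 1), 5 with the replicate block, and 0 with no filter, with only the groups fitted, and without both replicate 1 libraries on either scale. Over all genes tested, vehicle at 24 h against day 7 gave 34 calls, and 4 on log2(TPM + 0.1), 5 on log2(TPM + 1), 4 with no filter, 109 with the replicate block and 0 with only its groups. Vehicle at 72 h against 24 h gave 709, and 270.0, 264, 94, 1067 and 4 in the same order, 380.0 without both replicate 1 libraries, and 0 on log2(TPM + 0.1) without them.

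Leaving out 1 library gave 25 to 26 of the 45 genes in differentiation, 3 to 9 at 24 h, 9 to 15 at 72 h, 1 to 6 for the change of response, 0 to 3 for vehicle at 24 h against day 7 and 0 to 2 for vehicle at 72 h against 24 h. Over all genes the ranges were 9023 to 9604, 2706 to 4358, 3892 to 5472, 1241 to 2686, 0 to 328 and 2 to 1751 in that order. Fitting only the groups compared ended 14 calls of these genes, no filter 11, and leaving out 1 library 88 of all such pairs of call and library. Quantile normalisation ended 3 calls and added 7. Among those added were Pgm1 at 24 h of dexamethasone (-0.236, adjusted p = 0.0423) and Eno1 for the change of response (0.36, adjusted p = 0.0322). At 24 h, Slc2a1 missed the threshold with no filter (adjusted p = 0.0531) and with only its groups (0.0576), as did Pfkfb2 (0.0681 and 0.0858).

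Besides the calls given in the report, the replicate block changed no other call in differentiation, with dexamethasone or in the change of response. For the vehicle comparisons the numbers do not pair the libraries (correlations -0.014 to 0.492 and -0.249 to 0.565), and the block added Slc16a1, Gbe1 and Phkb at 72 h against 24 h. Depth is unknown, and levels below 1 TPM (Aldoc, Fbp2, Ppp1r3b, Slc2a3) cannot be given a counting error.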
